A study of Mus musculus with 12 samples.

Results

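A set of 10 genes that mark endoderm or epithelium was followed across 3 cell populations sorted from E7.5 mouse embryos. Its members are 10 of the 22400 rows of a gene-level array table, taken from it by a list of Ensembl gene IDs, all of which were present. The list holds 5 genes for proteins secreted by endoderm (Afp, Ttr, Apoa1, Apob and Apoh), 2 endoderm transcription factor genes (Hnf4a and Foxa2) and 3 genes for epithelial adhesion proteins (Cdh1, Epcam and Cldn3). The embryos carried a Foxf1::venus knock-in on a C57BL/6 background, in which the fluorescent protein VENUS reports the forkhead gene Foxf1, and all 3 populations share it. The populations were Flk-pos Foxf1-pos cells, Flk-neg Foxf1-pos cells and Flk-pos Foxf1-neg cells, where FOXF1 status was read from VENUS. FLK1 is the vascular endothelial growth factor receptor of early mesoderm. Every population has 2 arrays, each from a separate sort of 50 cells, and a value is a log2 signal from RMA, an array summary that can shrink large differences. Whether embryos were pooled for a sort is not stated in the sources used here. Population names follow the labels, and the RNA of the sorting genes was not checked against them here.

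At gastrulation the visceral endoderm, an epithelium that surrounds the mouse embryo, makes apolipoproteins and other carrier proteins under transcription factors such as HNF4A. FOXA2 is needed for definitive endoderm and the node. Cells that leave the primitive streak as mesoderm, the source of FLK1-positive and of FOXF1-positive cells, lower the epithelial junction protein E-cadherin. The comparison of the gates therefore asks whether any of them carries more endoderm or epithelial RNA than another.

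Cldn3 was the 1 member that passed the test between populations, and the promoter windows of Cldn3 and of Epcam, an epithelial gene that did not pass, are printed to set the 2 genes side by side. Both come from RefSeq (build GRCm38.p6, plus strand), whose promoter table held 8 of the 10 members, and run from 250 bases before the annotated start to 50 bases after it. The windows are chr5:134985964-134986263 for Cldn3 and chr17:87635729-87636028 for Epcam. Capitals mark the letters CACCTG or CAGGTG, the 2 strands of an E-box bound by Snail-type repressors, and TAAACA or TGTTTA, the 2 strands of a forkhead core.
Cldn3: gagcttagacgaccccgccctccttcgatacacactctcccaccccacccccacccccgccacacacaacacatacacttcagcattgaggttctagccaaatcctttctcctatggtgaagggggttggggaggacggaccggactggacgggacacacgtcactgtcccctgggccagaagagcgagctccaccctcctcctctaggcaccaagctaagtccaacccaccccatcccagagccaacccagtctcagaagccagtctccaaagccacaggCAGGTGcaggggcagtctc
Epcam: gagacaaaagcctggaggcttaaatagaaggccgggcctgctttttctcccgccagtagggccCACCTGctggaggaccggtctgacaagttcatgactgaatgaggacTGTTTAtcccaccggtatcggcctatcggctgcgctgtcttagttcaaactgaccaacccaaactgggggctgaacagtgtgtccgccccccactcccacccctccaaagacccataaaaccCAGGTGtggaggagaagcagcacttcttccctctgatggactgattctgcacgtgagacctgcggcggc
The Cldn3 window held CAGGTG once, at base 282, and no forkhead core. The Epcam window held CACCTG at base 64, TGTTTA at base 110 and CAGGTG at base 232, none of which overlap. Of all 32851 promoter windows in the table, 20.2% held the E-box letters and 13.4% the forkhead core on either strand. A match is a description of the letters only, and the arrays did not measure binding.

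Cldn3 (ENSMUSG00000070473) encodes claudin-3, a sealing protein of epithelial tight junctions. Its log2 signal was 8.88 and 8.61 in Flk-pos Foxf1-pos cells, 5.44 and 5.30 in Flk-neg Foxf1-pos cells and 6.51 and 6.58 in Flk-pos Foxf1-neg cells. The 3 populations did not overlap, and the Flk-pos Foxf1-pos arrays were the highest. The means were 8.75 ± 0.19 in Flk-pos Foxf1-pos cells (SD, n = 2), 5.37 ± 0.10 in Flk-neg Foxf1-pos cells, which were lowest, and 6.55 ± 0.05 in Flk-pos Foxf1-neg cells. In these bulk samples, more cells with the transcript and more transcript per cell cannot be told apart.

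**Figure D1:**
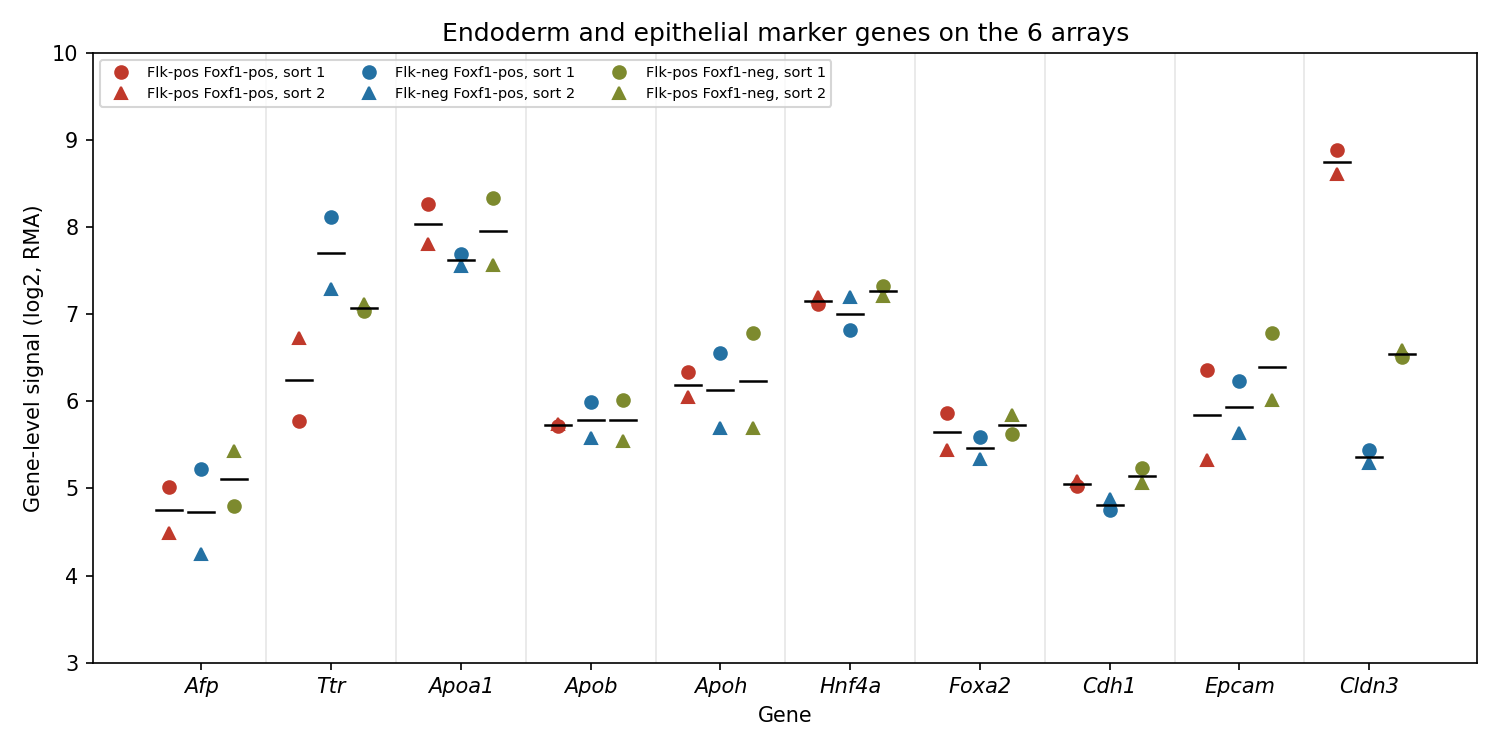
Gene-level log2 signal of the 10 genes (vertical axis) on each of the 6 arrays, with circles for sort 1, triangles for sort 2 and a black line at the mean of each population. Cldn3 lies at 8.61 and 8.88 in Flk-pos Foxf1-pos cells and at or below 6.58 on all 4 other arrays, while the populations lie close together for most other genes.

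In Flk-pos Foxf1-pos against Flk-neg Foxf1-pos cells, which sets FLK1-positive against FLK1-negative cells among those sorted as FOXF1-positive, Cldn3 was higher. The difference was 3.38 ± 0.21 log2 units (SE; limma with Benjamini-Hochberg adjustment over all 22400 rows, adjusted p = 0.00352; 95% interval 2.89 to 3.88), or 10.4-fold on the signal scale. It was the 1 member of 10 that passed in either direction, where 0.286% of all rows passed (0.219% of all rows higher and 0.0670% lower). The members and comparisons were chosen with earlier results of these data known, so this count is not a fresh test of the list. Without Flk-pos Foxf1-pos sort 1 the difference was 3.25 log2 units and the adjusted p 0.0670, so the call was lost. The fit then rests on 1 Flk-pos Foxf1-pos array that is assumed to vary like the others. With any other array left out the adjusted p lay between 0.0137 and 0.0416.

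In Flk-pos Foxf1-pos against Flk-pos Foxf1-neg cells, which sets VENUS-positive against VENUS-negative cells among those that carry FLK1, Cldn3 differed by 2.20 ± 0.21 log2 units (95% interval 1.71 to 2.70). This did not pass the threshold (limma adjusted p = 0.141), although the gene ranked 2 of 22400 by p. No member passed, and neither did any other row (0%). At an unadjusted p under 0.05 there was 1 member, Cldn3, and 4.67% of all rows. The same Flk-pos Foxf1-pos arrays enter this comparison and the one by FLK1, so the values for Cldn3 are not independent of each other.

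In Flk-neg Foxf1-pos against Flk-pos Foxf1-neg cells, the populations positive for a single marker, Cldn3 differed by -1.18 ± 0.21 log2 units (95% interval -1.68 to -0.68). Here too the adjusted p from limma missed the threshold, at 0.0880. None of the 10 members passed in either direction, where 0.545% of all rows did. The count at an unadjusted p under 0.05 was 1 member, again Cldn3, against 7.28% of all rows.

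**Figure D2:**
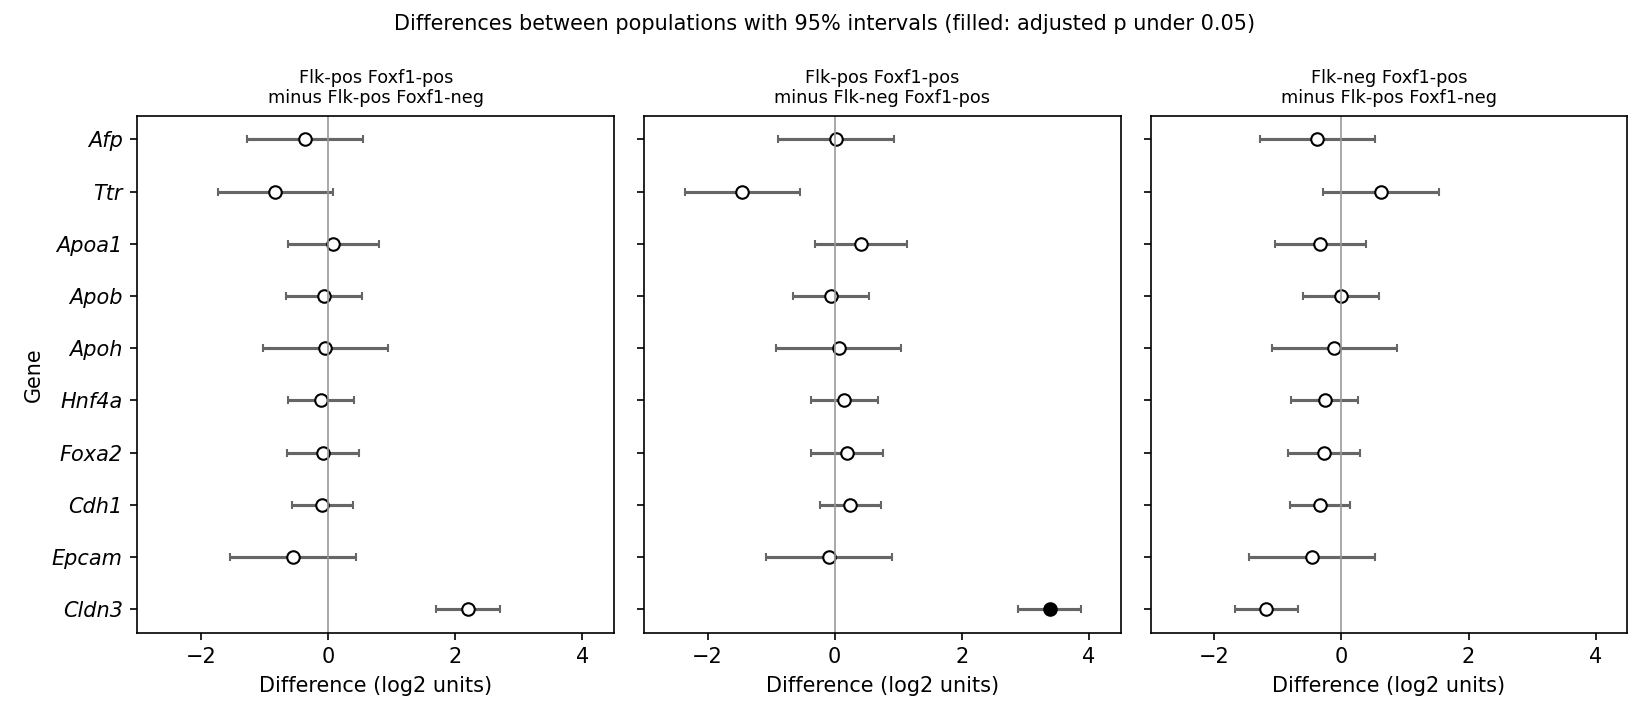
Differences in log2 signal for the 10 genes in the 3 comparisons (horizontal axis, log2 units), with 95% intervals from limma that are not adjusted for the number of genes, and filled points where the adjusted p was under 0.05. The filled point is Cldn3 at 3.38 in Flk-pos Foxf1-pos minus Flk-neg Foxf1-pos cells, and 26 of the 27 intervals of the other 9 genes include 0.

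The Cldn3 row was also set beside the exon-level table, which holds the same 6 arrays. Probe set 4443176 had the same value as the gene row on 5 of 6 arrays, within 5e-07 log2 units. On the sixth, Flk-neg Foxf1-pos sort 2, it read 5.05 where the gene row read 5.30. In Flk-pos Foxf1-pos minus Flk-neg Foxf1-pos cells this probe set differed by 3.50 ± 0.26 log2 units (limma adjusted p = 0.0137 over 128950 exon-level rows). It is the same hybridisation and no further replicate. On the sixth array the gene row equalled at least 1 other probe set. A match on 1 array does not show that a probe set enters the row, and how many do is not known. Over the 6 arrays, the rows most like Cldn3 among 1076 whose population means spanned at least 1 log2 unit were ENSMUSG00000097099 (Pearson r = 0.995) and ENSMUSG00000059430 (r = 0.981). These values describe 6 arrays that fall into 3 populations.

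Neither of the other epithelial adhesion genes passed the test in any comparison. Cdh1 (ENSMUSG00000000303), the gene for E-cadherin, read 5.03 and 5.09 in Flk-pos Foxf1-pos cells, 4.75 and 4.87 in Flk-neg Foxf1-pos cells and 5.24 and 5.06 in Flk-pos Foxf1-neg cells. The Flk-neg Foxf1-pos arrays were the lowest and overlapped with neither other population. In Flk-pos Foxf1-pos minus Flk-neg Foxf1-pos cells, where Cldn3 passed, Cdh1 differed in the same direction by 0.25 ± 0.20 log2 units (95% interval -0.23 to 0.72; limma adjusted p = 0.999), and the difference between the genes was not tested. The difference of Flk-neg Foxf1-pos from Flk-pos Foxf1-neg cells was -0.34 ± 0.20 log2 units (limma adjusted p = 0.848), and that of Flk-pos Foxf1-pos from Flk-pos Foxf1-neg cells was -0.09 ± 0.20 (95% interval -0.57 to 0.39). Cdh1 lay near the dim end of every array, above 12.8% to 25.4% of all rows. Some members were brighter, with Apoa1 above 81.9% to 88.6%, Hnf4a above 69.2% to 77.6% and Ttr above 41.7% to 87.3% of rows. Epcam lay above 27.8% to 68.1% of rows, and Apob, Apoh and Foxa2 fell within that range. Probes differ in brightness for equal amounts of RNA, so these shares place the values on the array's scale and do not rank genes.

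Epcam (ENSMUSG00000045394) encodes a surface adhesion molecule of epithelial cells. It read 6.36 and 5.33 in Flk-pos Foxf1-pos cells, 6.24 and 5.64 in Flk-neg Foxf1-pos cells and 6.79 and 6.01 in Flk-pos Foxf1-neg cells. All 3 populations overlapped. The 2 sorts of a population lay 0.60 to 1.04 log2 units apart, with sort 1 higher each time. Within each sort, the Flk-pos Foxf1-neg array was the highest. The largest difference between populations was -0.56 ± 0.42, in Flk-pos Foxf1-pos minus Flk-pos Foxf1-neg cells (95% interval -1.55 to 0.43). With sort number added to the fit, the SE of this difference was 0.22 log2 units, and the difference did not pass (limma adjusted p = 0.861).

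Among the secreted proteins, Ttr showed the widest spread between populations, and in another order than Cldn3. Ttr (ENSMUSG00000061808) encodes transthyretin, a carrier of thyroid hormone and retinol-binding protein. Its signal was 5.77 and 6.73 in Flk-pos Foxf1-pos cells, 8.12 and 7.28 in Flk-neg Foxf1-pos cells and 7.03 and 7.12 in Flk-pos Foxf1-neg cells. No 2 populations overlapped, with the Flk-pos Foxf1-pos arrays lowest and the Flk-neg Foxf1-pos arrays highest. Double-positive minus Flk-neg Foxf1-pos cells gave -1.45 ± 0.39 log2 units (95% interval -2.36 to -0.55; unadjusted p = 0.00661), which did not pass after adjustment over all rows (limma adjusted p = 0.444). With Cldn3 it made 2 members at an unadjusted p under 0.05 in that comparison, where 5.86% of all rows reached it. The Flk-pos Foxf1-pos sorts lay 0.96 log2 units apart, and 1 exon-level probe set had the same value as the Ttr row on every array. Such a probe set was also found for Apoh and for Foxa2.

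Afp (ENSMUSG00000054932), which encodes alpha-fetoprotein, the main serum protein of the yolk sac endoderm, was dim throughout. It read 5.01 and 4.49 in Flk-pos Foxf1-pos cells, 5.22 and 4.25 in Flk-neg Foxf1-pos cells and 4.79 and 5.43 in Flk-pos Foxf1-neg cells. Every pair of populations overlapped, and the values lay above 5.06% to 31.4% of the rows of their array. The largest difference, in Flk-neg Foxf1-pos minus Flk-pos Foxf1-neg cells, was -0.38 ± 0.39 log2 units (limma adjusted p = 0.951). Without detection calls, a dim signal cannot be called absent.

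None of the apolipoprotein genes passed the test in any comparison. Apoa1 (ENSMUSG00000032083), for the main protein of high-density lipoprotein, was at 8.26 and 7.81 in Flk-pos Foxf1-pos cells, 7.69 and 7.55 in Flk-neg Foxf1-pos cells and 8.33 and 7.57 in Flk-pos Foxf1-neg cells. Its Flk-pos Foxf1-pos arrays were above both Flk-neg Foxf1-pos arrays by little, with a difference of 0.42 ± 0.31 log2 units (95% interval -0.30 to 1.14). Apob (ENSMUSG00000020609), for the structural protein of low-density lipoprotein, read 5.71 and 5.73 in Flk-pos Foxf1-pos cells, 5.99 and 5.57 in Flk-neg Foxf1-pos cells and 6.01 and 5.55 in Flk-pos Foxf1-neg cells. The Flk-pos Foxf1-pos values of Apob lay between those of both other populations, and none of its 3 differences exceeded 0.06 log2 units in size. Apoh (ENSMUSG00000000049), for a phospholipid-binding plasma glycoprotein, read 6.33 and 6.05 in Flk-pos Foxf1-pos cells, 6.55 and 5.70 in Flk-neg Foxf1-pos cells and 6.78 and 5.69 in Flk-pos Foxf1-neg cells. The sorts of Apoh differed by more (0.29 to 1.09 log2 units) than the population means did (at most 0.11).

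The transcription factor genes varied little, over 0.52 log2 units for Hnf4a and 0.53 for Foxa2 across all 6 arrays. Hnf4a (ENSMUSG00000017950), a nuclear receptor that drives visceral endoderm differentiation, read 7.11 and 7.20 in Flk-pos Foxf1-pos cells, 6.81 and 7.19 in Flk-neg Foxf1-pos cells and 7.33 and 7.20 in Flk-pos Foxf1-neg cells. Both Flk-pos Foxf1-neg values lay just above all 4 others. The difference of Flk-neg Foxf1-pos from Flk-pos Foxf1-neg cells was -0.26 ± 0.22 log2 units (95% interval -0.78 to 0.26). Foxa2 (ENSMUSG00000037025), a forkhead factor of definitive endoderm, node and notochord, read 5.86 and 5.44 in Flk-pos Foxf1-pos cells, 5.59 and 5.34 in Flk-neg Foxf1-pos cells and 5.62 and 5.84 in Flk-pos Foxf1-neg cells. The Flk-pos Foxf1-pos arrays of Foxa2 overlapped with both other populations, and the difference of Flk-neg Foxf1-pos from Flk-pos Foxf1-neg cells was -0.27 ± 0.24 log2 units (95% interval -0.83 to 0.30).

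No endoderm or unsorted sample was among the arrays, so endoderm RNA shared by all gates would not show here. As a check for unequal endoderm in the gates, the mean log2 signal of the 5 secreted protein genes was set beside each population. It was 6.22 and 6.16 in Flk-pos Foxf1-pos cells, 6.71 and 6.07 in Flk-neg Foxf1-pos cells and 6.59 and 6.27 in Flk-pos Foxf1-neg cells. The Flk-neg Foxf1-pos arrays spanned the range of the Flk-pos Foxf1-pos ones and reached above and below both others. On this mean over 5 genes, of which Ttr had the widest spread between populations, the Flk-pos Foxf1-pos arrays were not the highest. By gene, the Flk-pos Foxf1-pos mean was lowest for Ttr (6.25, against 7.70 in Flk-neg Foxf1-pos and 7.08 in Flk-pos Foxf1-neg cells) and for Apob. It was highest for Apoa1 (8.03, against 7.62 and 7.95 in the same order) and lay between the others for Afp and Apoh. The part of other cells in the Cldn3 difference was not tested. Over all 10 genes, Cldn3 included, the median difference was -0.09 log2 units in Flk-pos Foxf1-pos minus Flk-pos Foxf1-neg cells. It was 0.11 in Flk-pos Foxf1-pos minus Flk-neg Foxf1-pos cells and -0.30 in Flk-neg Foxf1-pos minus Flk-pos Foxf1-neg cells. The medians over all rows lay between -0.007 and 0.002. A median of 10 genes varies more than that of all rows, and a shift of the set was not tested.

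The groups did not overlap for 3 of 10 members in Flk-pos Foxf1-pos against Flk-pos Foxf1-neg cells, where 32.0% of all rows did not. In Flk-pos Foxf1-pos against Flk-neg Foxf1-pos cells this held for 4 of 10 members and 32.4% of rows, and in Flk-neg Foxf1-pos against Flk-pos Foxf1-neg cells for 5 of 10 members and 35.1% of rows. With 10 members, these counts are near the shares of all rows. The 9 genes other than Cldn3 had 27 differences, of which 26 were under 1 log2 unit in size. For any gene, 2 of its 3 differences fix the other, so the 27 are not independent. For 14 of the 27 the 95% interval, from the fit without sort number, lay wholly within 1 log2 unit of 0. For the remaining 13 a difference of 1 unit or more was not excluded in that fit at this number of arrays. These intervals reached from -2.36 to 1.53. Over all rows, the smallest difference that passed was 1.57 log2 units in size in Flk-pos Foxf1-pos against Flk-neg Foxf1-pos cells. It was 1.44 in Flk-neg Foxf1-pos against Flk-pos Foxf1-neg cells, and no row passed in Flk-pos Foxf1-pos against Flk-pos Foxf1-neg cells.

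The 2 sorts were in the same order in all 3 populations for 3 of 10 members and for 30.8% of all rows, so the members' share is near that of the table. Sort 1 was higher than sort 2 in all 3 populations for these 3, Apoa1, Apoh and Epcam, and for 16.7% of all rows. Sort 2 was higher in all 3 populations for 0 of 10 members and 14.1% of rows. The mean of sort 1 minus sort 2 was 0.80 ± 0.18 log2 units for Epcam (SE; limma fit with population and sort number, chosen after the data were seen; unadjusted p = 0.00348, adjusted p = 0.477). It was 0.74 ± 0.21 for Apoh (unadjusted p = 0.0114, limma adjusted p = 0.512) and 0.45 ± 0.19 for Apoa1 (limma adjusted p = 0.617). None of these differences passed, and neither did any row of the table in that fit (0%), while 8.17% had an unadjusted p under 0.05. For Cldn3 the sorts lay 0.08 to 0.27 log2 units apart, well within its differences between populations.

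**Figure D3:**
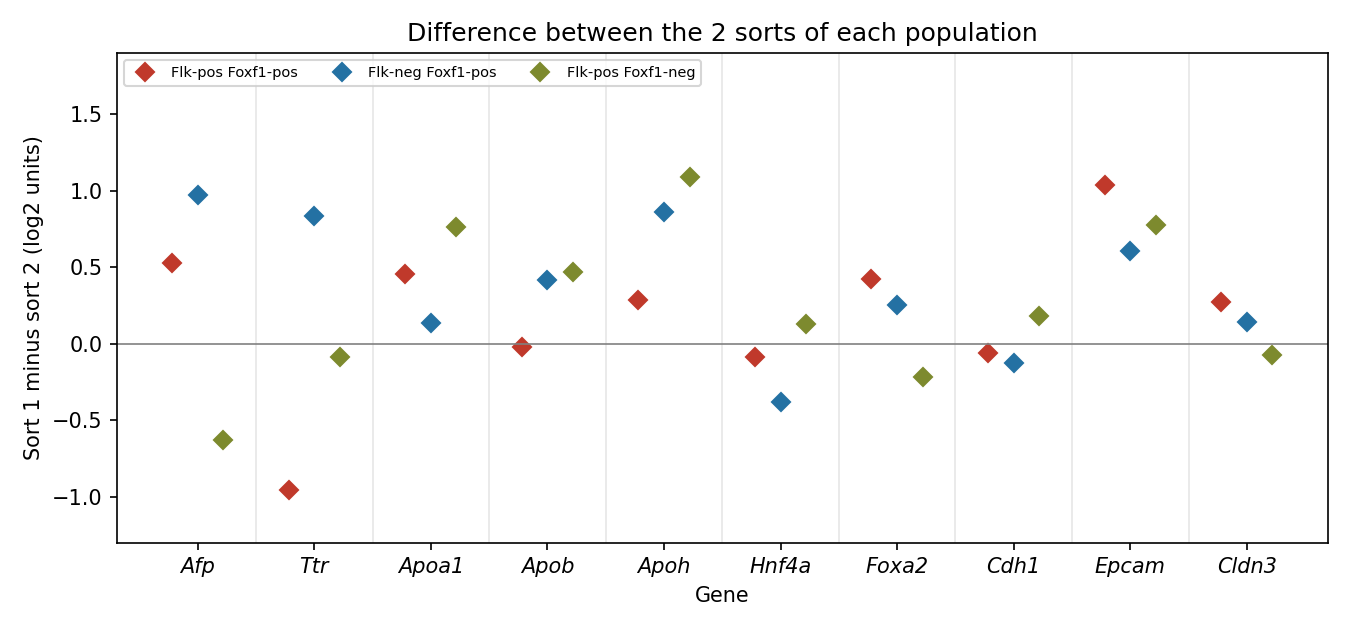
Sort 1 minus sort 2 in log2 units (vertical axis) for each of the 10 genes, with 1 diamond per population. Epcam lies between 0.60 and 1.04 and Apoh between 0.29 and 1.09 in all 3 populations, while Cldn3 stays between -0.08 and 0.27.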

How the data were processed

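Both deposited tables hold log2 signals of 6 Affymetrix arrays, made with RMA in Affymetrix Power Tools (no versions) per the submitters' processing notes, and the log scale was inferred from their range. The labels list 12 samples, which are the same 6 arrays at gene level and at exon level. The sources used here give neither the genome build nor how probe sets were grouped into genes. The gene table was fitted as deposited with limma 3.58.1 in R 4.3.3 (lmFit, eBayes) over all 6 arrays with population as the factor (3 residual and 4.27 prior degrees of freedom). Two-sided p-values were adjusted by Benjamini-Hochberg across all 22400 rows of a comparison, at a threshold of 0.05. All p-values come from limma. The number of arrays limits the precision, and the median standard error of a difference was 0.25 log2 units. The design names 2 biological replicates per population. The p-values rest on the spread between these sorts, pooled over the 3 populations and drawn by limma towards a value common to all rows. Sort differences correlated across rows at 0.059 (Flk-pos Foxf1-pos and Flk-neg Foxf1-pos), 0.137 (Flk-pos Foxf1-pos and Flk-pos Foxf1-neg) and 0.097 (Flk-neg Foxf1-pos and Flk-pos Foxf1-neg). The sorts were therefore not taken as paired, although correlations over all rows do not settle this for single genes. With a block for sort number, the SE of a difference fell from 0.42 to 0.22 log2 units for Epcam. It fell from 0.42 to 0.26 for Apoh and from 0.31 to 0.23 for Apoa1, and rose slightly for Cdh1, Hnf4a and Ttr.

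The members, lists and comparisons were chosen with earlier results of these data known. All 10 members were named by rule, with names from the member list. The reference table (49997 genes) matched 0 row IDs, so the planned marker lists of other cell types and pathways were not run, and row IDs most like a called member are given without names. The alternatives tried were a further quantile normalization, centring arrays on their median, a filter that drops rows below the median brightness, a robust prior with an intensity trend, a fit of just the compared populations, a block for sort number and the omission of each array. The exon-level probe set and the test between sorts were added after seeing the data. The fit was tested on simulated data. Figures used matplotlib 3.10.9 in Python 3.11.15.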

Additional observations from a re-analysis of the deposited data

How the results depend on the processing

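Cldn3 stayed past the threshold in Flk-pos Foxf1-pos against Flk-neg Foxf1-pos cells under the 6 alternatives that were not omissions of an array. Its exon-level probe set passed too. These fits gave differences of 3.38 to 3.50 log2 units and limma adjusted p of 0.00233 to 0.0137. Leaving out 1 array gave 3.25 to 3.52 and 0 to 1 members called higher, with 0 only without Flk-pos Foxf1-pos sort 1 (adjusted p = 0.0670). In a fit with a block for sort number, 1 member was called higher there and 0 in the other comparisons, and the block changed no call. The Cldn3 differences that missed the threshold missed it under every alternative run, with adjusted p of 0.107 to 0.611 in Flk-pos Foxf1-pos against Flk-pos Foxf1-neg cells and 0.0732 to 0.380 in Flk-neg Foxf1-pos against Flk-pos Foxf1-neg cells. No other member passed under any alternative (smallest adjusted p = 0.320). With rows below the median brightness dropped, 6 members were still tested.

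Of 30 differences, 14 changed sign when some array was left out and 0 under the other alternatives; none of the 14 had passed the threshold. In Flk-pos Foxf1-pos minus Flk-pos Foxf1-neg cells the ranges were -0.30 to 0.47 for Apoa1, -0.29 to 0.18 for Apob, -0.59 to 0.50 for Apoh and -0.29 to 0.13 for Foxa2. In Flk-pos Foxf1-pos minus Flk-neg Foxf1-pos cells they were -0.47 to 0.50 for Afp, -0.26 to 0.15 for Apob, -0.36 to 0.49 for Apoh, -0.61 to 0.42 for Epcam, -0.023 to 0.40 for Foxa2 and -0.039 to 0.34 for Hnf4a. In Flk-neg Foxf1-pos minus Flk-pos Foxf1-neg cells they were -0.86 to 0.11 for Afp, -0.71 to 0.049 for Apoa1, -0.23 to 0.23 for Apob and -0.65 to 0.44 for Apoh. Each such fit leaves 1 array in a population and fewer residual degrees of freedom.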
